A study of Mus musculus with 4 samples.

Results

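The 10 genes of the spindle assembly checkpoint and the kinases that work with it in mitosis were examined in metastatic 4T1 tumors of the mouse lung. They were taken by symbol from a count table of 56748 genes: the checkpoint genes Ttk, Bub1, Bub1b, Bub3, Mad1l1 and Mad2l1, their target Cdc20, and the kinases Aurka, Aurkb and Plk1. All 10 had enough reads to be tested, among 15320 tested genes. After ADC/cmLumiOpto, 9 of the 10 genes were lower than after saline, with a median log2 fold change of -0.52 beside 0.03 for all tested genes. Ttk, Plk1 and Bub1b lay lowest, at 57.2%, 64.1% and 65.4% of their saline means, whereas Aurka, whose direction turned with the scaling, and Mad2l1 were at 99.2% and 118%. None of the 10 passed an adjusted p of 0.05 in the edgeR quasi-likelihood test with 2 samples per group.

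The tumors grew from 4T1-FLuc cells, a mouse triple-negative breast cancer line carrying firefly luciferase, that were injected into the tail vein of female BALB/cJ mice 7 weeks of age with intact immune systems. The 2 saline samples (PBS control in the labels) came from tumors of mice given no ADC or gene therapy. The 2 ADC/cmLumiOpto samples came from tumors treated with CD276-DM1 together with cmLumiOpto, and the labels give 3 weeks for both groups. CD276-DM1 is an antibody against the surface protein CD276 linked to the microtubule inhibitor mertansine. In cmLumiOpto, a gene therapy, a luminescence-gated channel depolarizes the mitochondria of cancer cells. The labels give 16 mg/kg of the antibody-drug conjugate (ADC) and add an unexplained entry, Olap, to the treatment, while the methods give 8 mg/kg, and no sample received only 1 of the agents. The labels describe tumor cells harvested from the lung and the methods dissociated lung tissue, with 4 samples per group, of which 2 per group were analyzed here.

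The spindle assembly checkpoint holds a cell in metaphase until every kinetochore is attached to microtubules. At an unattached kinetochore the kinase TTK (MPS1) phosphorylates the scaffold KNL1, which recruits BUB3 with BUB1 and BUBR1 (encoded by Bub1b), and MAD1 then converts MAD2 (encoded by Mad2l1) to the form that captures CDC20. MAD2, BUBR1, BUB3 and CDC20 form the mitotic checkpoint complex, which keeps the ubiquitin ligase APC/C from degrading securin and cyclin B. Aurora A and PLK1 build and mature the spindle poles, and Aurora B, in the chromosomal passenger complex, corrects faulty attachments. Most of these genes are known to be transcribed mainly in G2 and mitosis, and microtubule inhibitors such as mertansine are known to engage the checkpoint.

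Promoters of genes expressed in G2 and mitosis often carry a cell cycle homology region (CHR, TTTGAA or TTCGAA) and CCAAT boxes. RefSeq promoters (build GRCm38.p6, 250 bases before the start site and 50 after it) were found for 9 of the 10 genes, all except Aurkb. On either strand, 7 of the 9 held a CHR word, against 19.2% of 32851 promoters, and 7 of the 9 held CCAAT, against 37.4%. In the bases before the start site alone, 3 of the 9 held a CHR word and 7 of the 9 held CCAAT, against 17.1% and 33.8% of all promoters. An E2F-like word (TTTCCCGC, TTTCGCGC, TTTGCCGC or TTTGGCGC) was in 0 of the 9 and in 2.26% of all promoters. No CHR word overlapped a CCAAT box in the members' promoters. The genes with both words were Bub1, Bub1b, Bub3, Ttk, Cdc20, Aurka and Plk1, and Mad2l1 and Mad1l1 held none of the words, Mad1l1 in both of its listed promoters. A match describes the letters and is not evidence of binding.

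The 250 bases before the start site are printed 5′ to 3′ on the gene's strand for 4 genes with the words and for the 2 genes without them, with CHR and CCAAT words on either strand in capitals (TTCAAA and ATTGG are TTTGAA and CCAAT on the other strand). Cdc20 is shown because its CHR word lies between 2 CCAAT boxes close to the start, Bub3 for the same arrangement farther upstream, Bub1b because its upstream words are widely spaced, and Ttk, the gene with the lowest fold change, because its CHR word lies beyond the printed stretch, at base 8 after the start. The Mad2l1 promoter is shown because Mad2l1 alone had a higher mean after treatment.
Cdc20 promoter, chr4:118437344-118437593, - strand: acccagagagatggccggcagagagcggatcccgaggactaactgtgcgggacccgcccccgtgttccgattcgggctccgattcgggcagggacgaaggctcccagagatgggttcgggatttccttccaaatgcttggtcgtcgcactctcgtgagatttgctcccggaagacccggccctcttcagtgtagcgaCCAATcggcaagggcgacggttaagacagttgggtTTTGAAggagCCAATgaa
Bub3 promoter, chr7:131560120-131560369, + strand: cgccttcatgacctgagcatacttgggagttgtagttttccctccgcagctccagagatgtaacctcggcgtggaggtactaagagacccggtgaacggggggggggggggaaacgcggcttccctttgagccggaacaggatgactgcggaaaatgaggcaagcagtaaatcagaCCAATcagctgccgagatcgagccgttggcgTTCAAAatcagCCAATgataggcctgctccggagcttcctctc
Bub1b promoter, chr2:118597961-118598210, + strand: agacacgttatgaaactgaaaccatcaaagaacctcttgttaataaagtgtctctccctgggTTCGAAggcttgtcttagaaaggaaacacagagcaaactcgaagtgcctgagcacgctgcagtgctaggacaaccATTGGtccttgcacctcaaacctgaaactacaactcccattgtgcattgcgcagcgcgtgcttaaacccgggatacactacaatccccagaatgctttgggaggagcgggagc
Ttk promoter, chr9:83834439-83834688, + strand: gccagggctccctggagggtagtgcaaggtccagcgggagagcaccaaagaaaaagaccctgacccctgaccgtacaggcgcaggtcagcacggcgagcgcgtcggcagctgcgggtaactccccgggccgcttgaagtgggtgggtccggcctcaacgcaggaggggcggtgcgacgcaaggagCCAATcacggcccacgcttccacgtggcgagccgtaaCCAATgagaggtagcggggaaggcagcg
Mad2l1 promoter, chr6:66534971-66535220, + strand: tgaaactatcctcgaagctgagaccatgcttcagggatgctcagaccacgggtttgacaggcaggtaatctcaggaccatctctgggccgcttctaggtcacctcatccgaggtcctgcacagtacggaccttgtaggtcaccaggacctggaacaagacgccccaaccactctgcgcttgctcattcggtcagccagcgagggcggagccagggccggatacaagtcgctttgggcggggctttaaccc
Mad1l1 promoter, chr5:140321553-140321802, - strand: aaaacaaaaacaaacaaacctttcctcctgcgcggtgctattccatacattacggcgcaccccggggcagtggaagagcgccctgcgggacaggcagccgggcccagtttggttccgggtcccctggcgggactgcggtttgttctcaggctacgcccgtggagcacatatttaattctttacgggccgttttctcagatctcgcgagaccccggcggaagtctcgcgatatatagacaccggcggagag
The printed words of Cdc20 begin 53, 18 and 8 bases before the start site, and those of Bub3 begin 74, 43 and 32 bases before it. For Mad2l1 and Aurka, the bases that follow the RefSeq start were not found in a GENCODE M21 transcript of the gene, so the start used in these tumors was not settled. Aurka, which held a CHR word and 2 CCAAT boxes, and Mad2l1, which held none, were the 2 genes whose groups overlapped. Among the 7 genes with both words, log2 fold changes ran from -0.81 for Ttk to -0.01 for Aurka.

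Values are CPM, counts brought to a common library size with TMM factors, unless another scale is named, a log2 fold change is ADC/cmLumiOpto minus saline, and each adjusted p is from the edgeR quasi-likelihood test with Benjamini-Hochberg adjustment over 15320 genes. Gene positions beside the symbols are those of the count table, for which the submitters' processing notes name mm39, and are on another build than the GRCm38.p6 promoter coordinates. In bulk tissue, fewer dividing cells, less RNA per cell and another mixture of cell types cannot be told apart.

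Ttk (ENSMUSG00000038379, chr9:83716742-83754442), the kinase that starts checkpoint signaling, measured 26.04 and 25.31 CPM in the saline samples and 15.11 and 14.27 CPM after ADC/cmLumiOpto. Both treated samples lay well below both saline samples, and the samples of each group were close together. Means were 25.7 ± 0.512 and 14.7 ± 0.596 CPM (SD, n = 2), and the log2 fold change was -0.81, with a standard error of 0.199 and an adjusted p of 0.123. Ttk was the only one of the 10 genes with an adjusted p under 0.05 in DESeq2 (0.0331) and in the edgeR exact test (0.0452).

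Bub1b (ENSMUSG00000040084, chr2:118428692-118472072) encodes BUBR1, the pseudokinase that blocks the APC/C as part of the mitotic checkpoint complex. Its values were 61.9 and 65.3 CPM after saline and 43.4 and 39.8 CPM after ADC/cmLumiOpto. The groups did not overlap, and the log2 fold change was -0.61 with a standard error of 0.158 and an adjusted p of 0.123 (edgeR).

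Bub1 (ENSMUSG00000027379, chr2:127643036-127673785), the kinase that marks the inner centromere and recruits other checkpoint proteins, measured 33.6 and 35.0 CPM after saline and 26.6 and 19.5 CPM after ADC/cmLumiOpto. Both treated samples were lower, and they lay farther apart than the saline pair. The log2 fold change was -0.57 with a standard error of 0.213 and an adjusted p of 0.182 (edgeR), and it was -0.81 without the first treated sample and -0.37 without the second.

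Bub3 (ENSMUSG00000066979, chr7:131161951-131173624), the adaptor that carries BUB1 and BUBR1 to the kinetochore, measured 134 and 139 CPM after saline and 118 and 121 CPM after ADC/cmLumiOpto. The treated samples were below the saline samples by a small margin, with a log2 fold change of -0.19, a standard error of 0.153 and an adjusted p of 0.484 (edgeR). Bub3 stood at -0.03 once a trend on gene length was taken out. The Bub3 span overlaps that of Fgfr2 on the opposite strand, which had 1800 to 3119 counts per sample, and the labels do not say whether the libraries kept strand, so reads of the 2 genes could not be told apart there.

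Mad1l1 (ENSMUSG00000029554, chr5:139994444-140307307) encodes MAD1, the kinetochore platform on which MAD2 is converted. It measured 34.7 and 40.5 CPM after saline and 24.6 and 28.1 CPM after ADC/cmLumiOpto. The groups did not overlap, and the log2 fold change was -0.51 with a standard error of 0.186 and an adjusted p of 0.176 (edgeR).

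Mad2l1 (ENSMUSG00000029910, chr6:66512374-66524204), whose product MAD2 captures CDC20, measured 46.5 and 40.9 CPM after saline and 58.0 and 45.4 CPM after ADC/cmLumiOpto. The groups overlapped, since the second treated sample lay below the first saline sample. The log2 fold change was 0.24 with a standard error of 0.189 and an adjusted p of 0.475 (edgeR). It was 0.06 without the first treated sample, 0.40 without the second, 0.16 without the second saline sample, and 0.46 with the length trend taken out.

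Cdc20 (ENSMUSG00000006398, chr4:118290098-118294549), the APC/C activator that the checkpoint restrains, measured 83.8 and 95.1 CPM after saline and 74.5 and 71.3 CPM after ADC/cmLumiOpto. Both treated samples were lower, and the log2 fold change was -0.29 with a standard error of 0.163 and an adjusted p of 0.317 (edgeR). Taking out the length trend moved it to -0.53 (adjusted p 0.176). Elovl1 overlaps Cdc20 on the opposite strand and had 840 to 1937 counts per sample, more in both treated samples than in the saline samples.

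Aurka (ENSMUSG00000027496, chr2:172198110-172212455), which encodes the spindle pole kinase Aurora A, measured 38.8 and 37.6 CPM after saline and 42.3 and 33.6 CPM after ADC/cmLumiOpto. The 2 treated samples lay on either side of the saline pair, and their mean of 37.9 ± 6.17 CPM was close to the saline mean of 38.2 ± 0.852 CPM (SD, n = 2). The log2 fold change was -0.01 with a standard error of 0.184 and an adjusted p of 0.977 (edgeR), and its sign turned under other scalings, with 0.03 for library size without TMM and 0.07 for upper-quartile factors.

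Aurkb (ENSMUSG00000020897, chr11:68936473-68942490), which encodes the kinase of the chromosomal passenger complex, measured 56.2 and 53.0 CPM after saline and 37.9 and 38.4 CPM after ADC/cmLumiOpto. The pairs were tight and did not overlap, and the log2 fold change was -0.52 with a standard error of 0.156 and an adjusted p of 0.142 (edgeR). The difference between the fold changes of Aurka and Aurkb was not tested.

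Plk1 (ENSMUSG00000030867, chr7:121758662-121769096), the polo-like kinase of mitotic entry, spindle poles and kinetochores, measured 76.7 and 59.1 CPM after saline and 41.3 and 45.8 CPM after ADC/cmLumiOpto. The saline samples were farther apart than the treated samples, and the groups did not overlap. The log2 fold change was -0.64 with a standard error of 0.189 and an adjusted p of 0.138 (edgeR). Leaving out samples in turn gave -0.81 to -0.45. With the length trend taken out, Plk1 was at -0.83, below Ttk at -0.74. A processed Plk pseudogene, Plk-ps1, had 1 and 7 counts after saline and 15 and 10 counts after ADC/cmLumiOpto, against at least 729 counts of Plk1 in every sample.

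**Figure D1:**
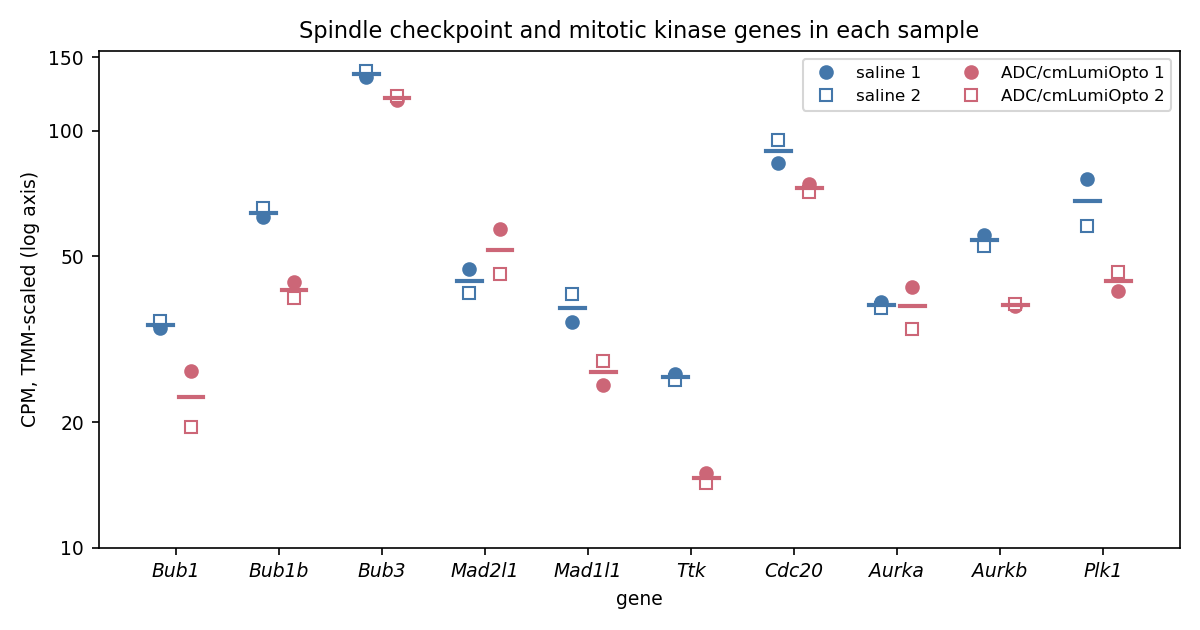
TMM-scaled CPM of the 10 genes (log axis) in each of the 4 samples, with circles for the first and squares for the second sample of a group and bars at the group means. Saline and ADC/cmLumiOpto points are separate in 8 genes and overlap in Mad2l1 and Aurka, and Ttk has the lowest treated points, at 25.31 to 26.04 against 14.27 to 15.11 CPM.

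Counted over the 10 genes, 0 reached an adjusted p of 0.05 in the edgeR quasi-likelihood test, as was true of 0% of the 15320 tested genes, with 0.116 as the lowest adjusted p. Of the 10 genes, 6 (Ttk, Bub1b, Plk1, Aurkb, Mad1l1 and Bub1) were lower at an unadjusted p under 0.05 and 0 were higher, whereas 12.2% of all tested genes were lower and 11% higher. That count was smaller with any sample left out, while the median log2 fold change of the 10 genes then ran from -0.47 to -0.45. The lower genes made up 52.4% of the 3553 genes at that threshold. Under upper-quartile factors 4 of the 10 genes were lower at that threshold, as were 1398 of the 15320 tested genes. There the lower genes made up 39.4% of the 3544 genes at the threshold. In 8 of the 10 genes both treated samples were below both saline samples, against 28.8% of all tested genes. The edgeR exact test gave 1 of the 10 genes an adjusted p under 0.05 with a lower value, against 3.68% of tested genes, and DESeq2 also 1, against 4.94%. Without a filter on low counts the quasi-likelihood test gave 3 (Ttk 0.0353, Plk1 0.0349 and Bub1b 0.0484), against 4.05% of 25563 genes. The 10 genes share samples and are regulated together in the cell cycle, so they are not 10 separate observations.

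**Figure D2:**
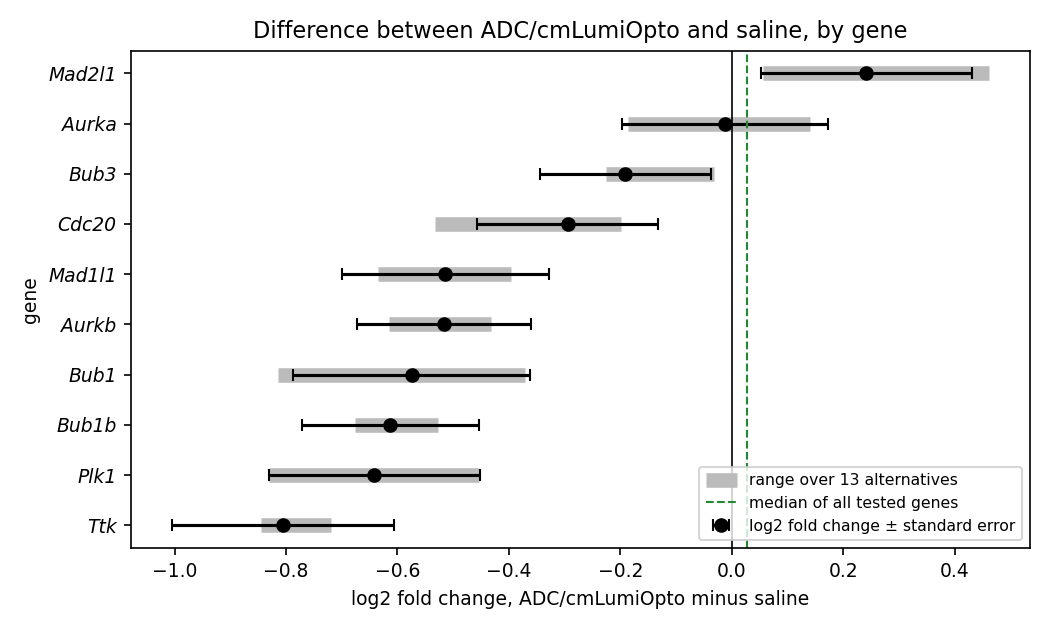
Log2 fold change of each gene, ADC/cmLumiOpto minus saline, with its standard error (points and whiskers) and the range over 13 alternative analyses (grey bars). Ttk, at -0.81, stays between -0.85 and -0.72, Aurka spans 0, and Mad2l1 stays above 0, between 0.06 and 0.46.

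Per length, on the RPKM scale, Cdc20 was the highest of the 10 genes and Plk1 the next in both groups. The Cdc20 level was 47.9 ± 4.26 RPKM after saline and 39.0 ± 1.25 RPKM after ADC/cmLumiOpto, and the Plk1 level was 30.9 ± 5.65 and 19.8 ± 1.45 RPKM (SD, n = 2). After saline they were followed by Bub3 (19.5), Aurkb (18.5), Aurka (15.1), Bub1b (14.9), Mad1l1 (10.3), Bub1 (7.87), Ttk (5.22) and Mad2l1 (5.21 RPKM). In that order Aurka and Bub1b overlapped, as did Ttk and Mad2l1, and the other neighbors did not.

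After ADC/cmLumiOpto, Aurka at 14.98 ± 2.44 RPKM stood above Aurkb at 12.96 ± 0.121 RPKM (SD, n = 2), the reverse of their saline order. The 2 genes did not overlap in either group, but in the second treated sample they were close, at 13.26 and 13.04 RPKM. Mad2l1 moved from the last place to 6.16 RPKM, where it overlapped both of its neighbors, Mad1l1 at 7.22 and Bub1 at 5.28 RPKM. Ttk was last at 2.99 RPKM. Lengths for RPKM were those listed in the count table.

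Ratios taken within each sample do not depend on how the samples were scaled to each other. For MAD2 and its partner MAD1, the log2 ratio of Mad2l1 to Mad1l1 CPM was 0.42 and 0.01 after saline and 1.24 and 0.69 after ADC/cmLumiOpto. Both treated ratios were above both saline ratios, and the mean was higher by 0.75, or by 0.47 without the first treated sample. The ratio of Cdc20 to Mad2l1 was 0.85 and 1.21 after saline and 0.36 and 0.65 after treatment, lower in both treated samples with a mean difference of -0.53, or -0.34 without the second saline sample.

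BUB1 and BUBR1 bind BUB3 directly, whereas TTK acts upstream of it. Against Bub3, the log2 ratios of Ttk and Bub1b were lower in both treated samples, with mean differences of -0.61 and -0.42. The log2 ratio of Bub1 to Bub3 was -1.997 and -1.983 after saline and -2.15 and -2.63 after ADC/cmLumiOpto. Its mean difference of -0.40 was -0.64 without the first treated sample and -0.16 without the second. The ratio of Aurka to Tpx2, whose product activates and anchors Aurora A, was -1.46 and -1.52 after saline and -0.56 and -0.96 after treatment. This ratio was higher in both treated samples by 0.73, with Tpx2 itself at 108 CPM after saline and 63.8 CPM after ADC/cmLumiOpto. Plk1 to Bora, the PLK1 activating partner, was lower in both treated samples (difference -0.43), and Aurkb to Incenp, the scaffold of the passenger complex, overlapped between groups with a difference of -0.09 that ran from -0.17 to -0.02 with a sample left out.

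The same ratios were taken to the mean log2 CPM of 15 proliferation genes (Mki67, Top2a, replication and cyclin genes), which was itself 7.29 and 7.33 after saline and 6.90 and 6.72 after ADC/cmLumiOpto. Relative to these genes, Mad2l1 was higher in both treated samples by 0.73, Aurka by 0.47, Bub3 by 0.30 and Cdc20 by 0.20. The reference itself was lower in both treated samples, while the median log2 fold change of all tested genes was 0.03. A gene without change would therefore also stand higher on this scale. The Bub3 difference was 0.20 without the second treated sample, and that of Cdc20 was 0.13 without the first saline sample. Ttk and Bub1b were lower in both, with differences of -0.31 and -0.12, and Bub1, Mad1l1, Aurkb and Plk1 overlapped between groups. Of the 18 ratios computed, 6 were above, 7 below and 5 overlapping. In the two-sided exact permutation test, 2 against 2 samples cannot give a p below 0.333, which is what each of the 13 ratios without overlap had (0.462 after Benjamini-Hochberg adjustment).

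**Figure D3:**
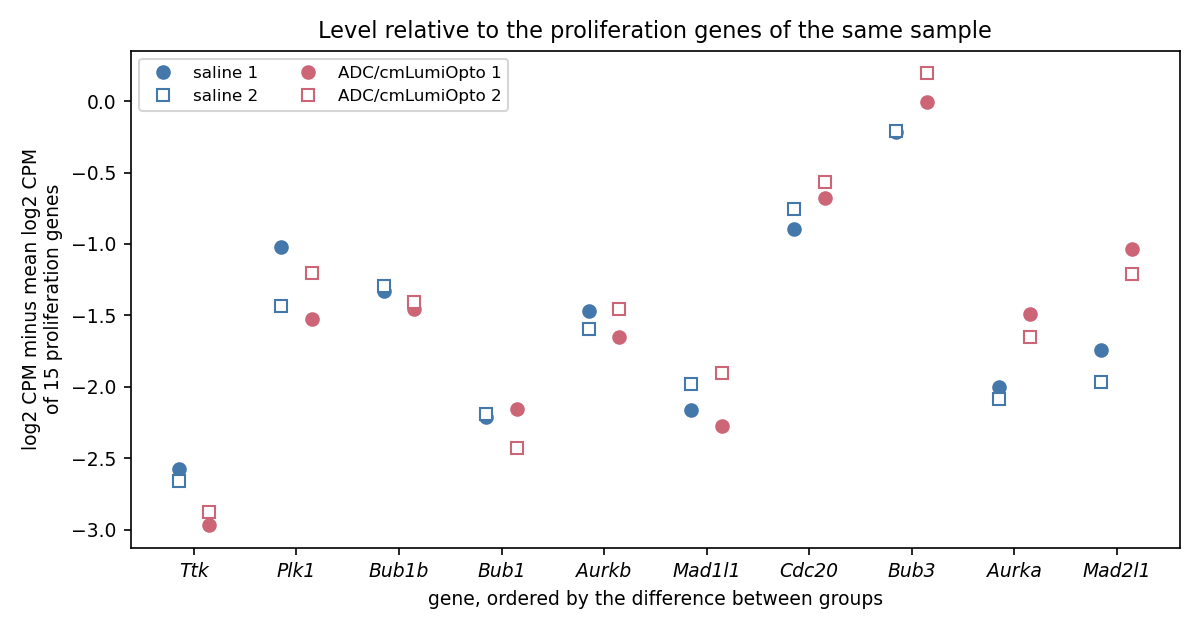
Log2 CPM of each gene minus the mean log2 CPM of 15 proliferation genes in the same sample, ordered by the difference between groups. Ttk and Bub1b are lower in both ADC/cmLumiOpto samples, Bub3, Cdc20, Aurka and Mad2l1 are higher in both, and the other 4 genes overlap. The proliferation genes were themselves lower after ADC/cmLumiOpto, so a gene without change is also higher on this scale.

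Genes that act with the checkpoint were followed in lists written from textbook roles. Of the 110 genes tested out of 112 in these lists, 86 were lower, 40 of them at an unadjusted p under 0.05, and 3 were higher at that threshold, with a median log2 fold change of -0.31 and no adjusted p under 0.05 (edgeR). Of all tested genes 48% were lower, and 12.2% were lower at an unadjusted p under 0.05 and 11% higher. Some genes stand in more than 1 list. Medians and counts describe the lists and were not tested against other genes.

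Among 11 checkpoint signaling partners, 9 were lower, 4 at an unadjusted p under 0.05 (12.2% of all tested genes), and the median was -0.20. That median was -0.39 without the second saline sample and -0.11 with upper-quartile factors. Cenpf, a large kinetochore protein, measured 91.9 and 116 CPM after saline and 51.7 and 57.2 CPM after ADC/cmLumiOpto, a log2 fold change of -0.93 (adjusted p 0.116, edgeR). Cenpe, the kinetochore motor that activates BUBR1, was at -0.77 (adjusted p 0.116). Mad2l1bp, which encodes p31comet, the protein that helps TRIP13 turn MAD2 back to its inactive form, measured 15.8 and 13.2 CPM after saline and 21.7 and 18.9 CPM after treatment, at 0.49 (adjusted p 0.251). Its 2 treated samples lay above both saline samples, which was not so for Mad2l1.

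The outer kinetochore list, the docking site for the checkpoint and for microtubules, had 8 of 13 genes lower, against 48% of all tested genes, and 1 of them at an unadjusted p under 0.05, against 12.2%, so its count of lower calls was no larger than the background. The median was -0.22, and it was -0.14 with upper-quartile factors, with the length trend taken out or without the second treated sample. The gene at that threshold was Knl1, the scaffold TTK phosphorylates, at 28.0 and 24.6 CPM after saline and 16.6 and 17.6 CPM after treatment, a log2 fold change of -0.62 (adjusted p 0.151, edgeR). Zwint, which binds KNL1, was at -0.40 (adjusted p 0.227) and Spc24 of the NDC80 complex at 0.26 (adjusted p 0.507). In the chromosomal passenger complex, the Aurora B partners Incenp and Cdca8 (borealin) were at -0.42 (adjusted p 0.185) and -0.41 (adjusted p 0.206), and Birc5 (survivin) at 0.09 (adjusted p 0.811), with its groups overlapping.

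All 19 genes of the list for Aurora A, PLK1 and mitotic entry were lower (48% of all tested genes), 8 at an unadjusted p under 0.05 (12.2%), with a median of -0.39. Foxm1, the transcription factor that drives many G2 and M genes, measured 85.5 and 82.7 CPM after saline and 39.3 and 46.2 CPM after ADC/cmLumiOpto, a log2 fold change of -0.98 (adjusted p 0.116, edgeR). Nek2, a centrosome kinase, was at -0.88 (adjusted p 0.116). Cdc25b, a phosphatase that activates CDK1, had the value nearest to 0 of the list, at -0.12 (adjusted p 0.694), with overlapping groups.

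The APC/C list, which holds the ligase that CDC20 activates, was divided, with 9 of 18 genes lower, 3 in each direction at an unadjusted p under 0.05, and a median of 0.00, which ran from -0.09 to 0.09 with a sample left out. These counts were near those of all tested genes (48% lower, 12.2% and 11% at the unadjusted threshold). The subunit genes Anapc1 and Cdc27 were at -0.57 and -0.58 (adjusted p 0.126 for both, edgeR). Anapc13, another subunit gene, measured 20.35 and 22.89 CPM after saline and 48.51 and 30.05 CPM after treatment, at 0.86 (adjusted p 0.143). In the cohesin, securin and separase list, 11 of 11 genes were lower (48% of all tested genes), 4 at an unadjusted p under 0.05 (12.2%), with a median of -0.29 that was -0.45 without the first saline sample. Its values ran from Stag1 at -0.72 (adjusted p 0.136) and Smc1a at -0.59 (adjusted p 0.132) to Cdca5 (sororin) at -0.18 (adjusted p 0.660).

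The mitotic kinesins, the motors that move chromosomes and spindle poles, had 11 of 11 genes lower, 8 at an unadjusted p under 0.05 (12.2% of all tested genes), with both treated samples below both saline samples in all 11 (28.8%) and a median of -0.61. The kinesin median was -0.53 with upper-quartile factors and -0.52 without the second treated sample. With the length trend taken out it was -0.44, beside -0.55 for the 10 genes and -0.54 for the proliferation genes. Kif4 measured 40.9 and 47.1 CPM after saline and 21.7 and 22.3 CPM after ADC/cmLumiOpto, 49.98% of its saline mean (adjusted p 0.116, edgeR), and Kif20a was at -0.68 (adjusted p 0.123). The highest value of the list was that of Kif2c, at -0.31 (adjusted p 0.320). The proliferation genes had 13 of 15 lower, 10 at an unadjusted p under 0.05, and a median of -0.55, with Mki67 at -0.93 (adjusted p 0.116), Top2a at -0.83 (adjusted p 0.116) and Tyms at 0.05 (adjusted p 0.915).

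**Figure D4:**
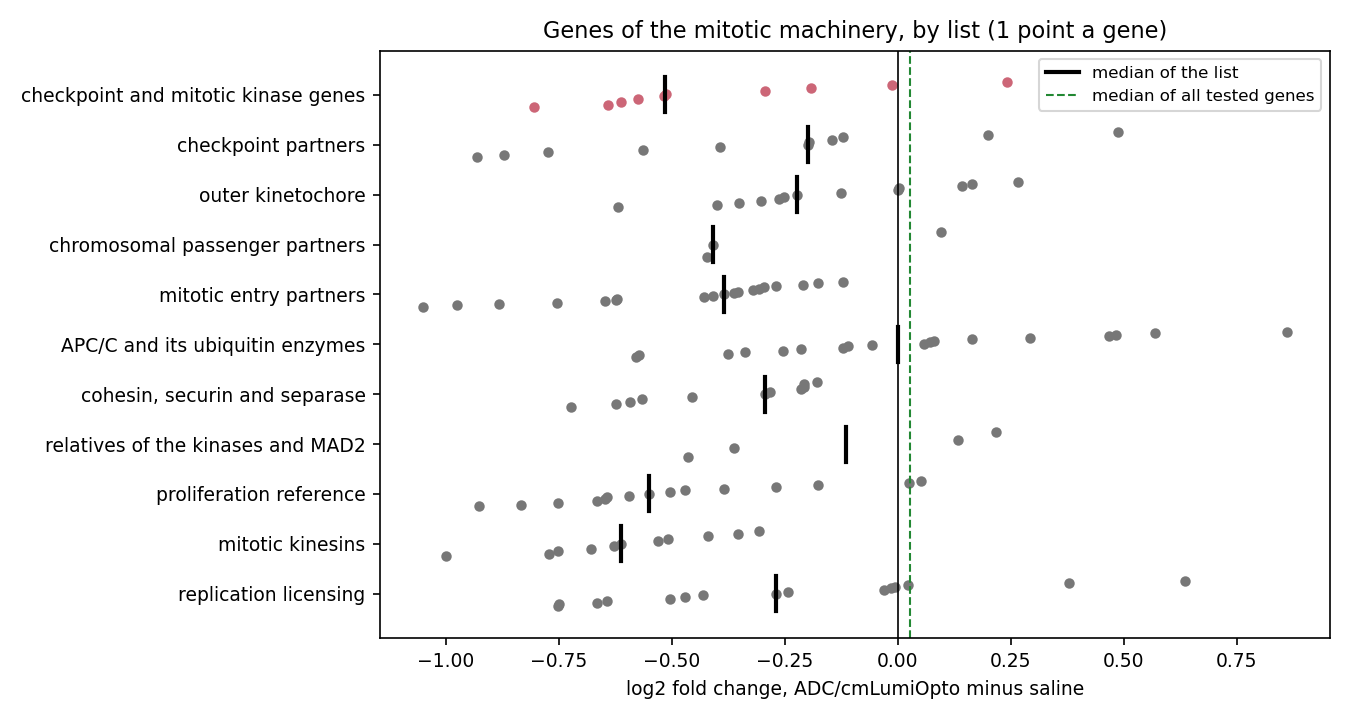
Log2 fold changes, ADC/cmLumiOpto minus saline, of the 10 genes (red) and of the lists around them (grey), 1 point per gene, with black bars at the medians and a dashed line at the median of all tested genes, 0.03. The mitotic kinesins, at -0.61, the proliferation genes, at -0.55, and the 10 genes, at -0.52, have the lowest medians, and the APC/C list is centered on 0.00.

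Sequencing depth was 15263375 to 19675436 counts per sample, so that 3 counts, the floor used here, correspond to 0.152 to 0.197 CPM, far below every one of the 10 genes, whose counts were between 267 and 2480. The cell mixture also differed between the groups. The summed CPM of 7 epithelial markers that 4T1 cells express was 2947 and 3308 after saline and 2928 and 2852 after ADC/cmLumiOpto. These markers are epithelial and not specific to the tumor, so their sums do not measure the share of tumor cells. Of these 7 genes, 4 were higher and 3 lower, from -0.25 to 2.02 on the log2 scale, 1 of them higher at an unadjusted p under 0.05, so the similar sums cover members that went both ways. Markers of leukocytes (10 genes, 9 tested, all 9 higher) summed to 2334 and 1491 after saline and 4977 and 5889 after treatment, and those of alveolar type 2 cells (6 genes, 5 higher) to 1581 and 420 and to 5410 and 4598. Alveolar type 1 markers (5 genes, 5 higher) summed to 245 and 104 and to 650 and 624 CPM, endothelial markers (6 genes, 5 higher) to 500 and 396 and to 494 and 732, and fibroblast markers (6 genes, 6 lower) to 5065 and 3462 and to 1720 and 1395. No marker was at 0 in every sample, the sums of the leukocyte and lung lists were above 0 in each of the 4 samples, and the part of the cell mixture in the lower mitotic genes was not tested. The share of mitochondrial counts was 1.14% and 1.17% after saline and 2.09% and 1.84% after treatment, and its part was not tested either. Nothing in the labels says whether the samples of a group came from separate mice, so the p-values measure the spread between these samples.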

How the data were processed

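Messenger RNA of 2 saline and 2 ADC/cmLumiOpto samples was sequenced on an Illumina platform. The authors deposited counts, whole numbers of reads per gene for 56748 genes, without normalization. The methods name HISAT2 and GRCm38, and the submitters' processing notes name HISAT2, TopHat2 and mm39. The program that counted the reads and its use of strand are not given in the sources used here. Positions in the table were the same as in GENCODE M21 (GRCm38) for 1435 of 52073 shared identifiers, so genes were matched by symbol and identifier.

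The whole table was fitted in R 4.3.3 with edgeR 4.0.16 (filterByExpr at its default minimum count, 10, and total, 15, then TMM, estimateDisp, glmQLFit, glmQLFTest) with Benjamini-Hochberg adjustment and a threshold of 0.05, after the study's methods. 31185 genes had no count. Standard errors were derived from the fold change and its F statistic. The prior count was 0.125 for log2 fold changes and 2 for within-sample log2 ratios. Ratios were compared by two-sided exact permutation tests in scipy 1.17.1. Alternatives were DESeq2 1.42.0, the edgeR exact test, 2 other scalings, 2 other filters, protein-coding genes and a replicate block. Further alternatives took out a lowess trend on gene length (span 0.3, base R) or left out each sample in turn. Tests were tested on simulated data first.

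The 10 genes, the lists and the alternatives were chosen with earlier results of these data known. All 10 genes are described, and from each list the 2 genes with the smallest p and the gene with the highest fold change. Promoters came from RefSeq (GRCm38.p6). Proteins were not analysed here. The floor covers counting error only, while standard errors include the spread between samples.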

Additional observations from a re-analysis of the deposited data

How the results depend on the processing

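Of 130 values of the 10 genes under 13 alternatives, 120 kept their direction and side of the adjusted threshold, 5 came to pass it and 5 turned in sign. The 5 that passed were Ttk in DESeq2, in the edgeR exact test and without the filter on low counts, and Bub1b and Plk1 without that filter, so that the number of genes lower at an adjusted p under 0.05 was 0 in the quasi-likelihood test, 1 in DESeq2, 1 in the exact test and 3 without the filter. The 5 sign changes were all of Aurka, at 0.0290 for library size without TMM, 0.0746 for upper-quartile factors, 0.0265 with at least 10 counts in every sample, 0.0165 for protein-coding genes only and 0.14 without the second treated sample, and leaving out samples gave it -0.19 to 0.14. The median of the 10 genes was -0.43 with upper-quartile factors, which placed the median of all genes at 0.11. Leaving out samples in turn gave medians of -0.47 to -0.45. Separation of the groups is easier to meet with 1 sample in a group, so no count of it is given for those fits. Relative to the proliferation genes, 4 differences whose groups overlapped changed sign when a sample was left out, with ranges of -0.230 to 0.0417 for Bub1, -0.202 to 0.167 for Mad1l1, -0.118 to 0.0764 for Aurkb and -0.343 to 0.0718 for Plk1. The cause was not tested.

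Over all genes, 0 passed in the quasi-likelihood test and 3553 had an unadjusted p under 0.05, whereas 1332 passed in DESeq2 (1486 had no adjusted p), 1170 in the exact test, 2259 without the filter, 607 with the replicate block and 0 to 218 with a sample left out. A lone sample was then assumed to vary like the other group. With the replicate block the median of the 10 genes was -0.51 and 0 of them passed. In that fit 6 of the 10 were lower at an unadjusted p under 0.05, as were 1910 of the 15320 tested genes. Deviations from the group mean had a correlation of 0.0985 between samples with the same number and -0.0985 between crossed numbers. With 2 samples per group these values mirror each other, so they could not decide whether samples with the same number were paired.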

Other observations

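The relatives of these kinases and of MAD2 had values on both sides of 0. Plk4, the kinase of centriole duplication, measured 55.7 and 57.6 CPM after saline and 42.7 and 45.4 CPM after ADC/cmLumiOpto, a log2 fold change of -0.36 (adjusted p 0.227, edgeR). Plk2, a stress-responsive relative of Plk1, measured 46.1 and 54.3 CPM after saline and 27.1 and 45.6 CPM after treatment, at -0.46 (adjusted p 0.333), with treated samples far apart. Plk3 was at 0.22 (adjusted p 0.652) and Mad2l2, a MAD2 relative of DNA repair, at 0.13 (adjusted p 0.756), both with overlapping groups. Aurkc and Plk5 had too few reads to be tested.

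Most genes of the replication licensing list act in loading the helicase on DNA in G1. In that list 12 of 15 were lower (48% of all tested genes), 6 at an unadjusted p under 0.05 (12.2%). The median was -0.27, and it was -0.47 without the first treated sample. Mcm6, a helicase subunit, measured 309 and 301 CPM after saline and 173 and 189 CPM after ADC/cmLumiOpto, a log2 fold change of -0.75 (adjusted p 0.116, edgeR), and the loading factor Cdt1 was at -0.75 (adjusted p 0.123). Orc1, a subunit of the origin recognition complex, had 4.37 and 4.31 CPM after saline and 7.42 and 6.09 CPM after treatment, at 0.64 (adjusted p 0.286), with both treated samples above both saline samples.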
